A study of Mus musculus with 8 samples.

Results

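A set of 34 genes for oxidising fatty acids and making ketone bodies was compared between livers of newborn mice with and without Myosin 5b (Myo5b). Myo5b is a motor protein that carries recycling endosomes along actin to the apical membrane, which in a hepatocyte is the bile canaliculus. The 34 genes are a fixed list of symbols: PPAR-alpha (Ppara), its partner Creb3l3 and target genes, the carnitine shuttle, the enzymes of mitochondrial and peroxisomal beta-oxidation, acyl-CoA thioesterases, and the ketone body enzyme Bdh1. All 34 were found among the 48440 genes of the count table and all 34 were among the 18274 genes tested. By place of action, 6 are regulators or their target genes, 18 are mitochondrial, 8 are peroxisomal, and Acot1 is the single cytosolic member, as Bdh1 is the single ketone member.

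RNA-seq was made from the whole livers of 4 knockout CD1 pups (animals 275 to 278) and 4 control littermates (animals 279 to 282). The knockouts carry a germline deletion of Myo5b, which is therefore not limited to the liver. Controls are heterozygous or wildtype, and the labels do not say which pup is which. The pups were killed at 3 to 8 days old, and neither age, sex, litter nor batch is labelled for each pup, so differences in age, litter or batch between the groups cannot be told apart from genotype. Y-linked reads, which mark males, stood at 238, 237 and 233 CPM in knockout 277 and controls 279 and 281, and at no more than 0.485 CPM in the other 5 livers. With them as a covariate, 8 members rose and 4 fell, against 11 and 8 without. The share called over all genes tested was 18.5% with this covariate and 20.7% without.

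Fatty acids reach the mitochondrial matrix as carnitine esters, and each round of beta-oxidation there removes an acetyl unit by dehydrogenation, hydration, a second dehydrogenation and thiolysis. Peroxisomes shorten very long and branched chains by their own enzymes and pass the products on. In the suckling liver, where milk fat is the main fuel, acetyl-CoA from these steps is turned into acetoacetate and beta-hydroxybutyrate for other organs, and the nuclear receptor PPAR-alpha, bound by fatty acids, is known for raising many of the genes involved.

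Myo5b, the deleted gene, was measured at 47.3, 43.1, 47.5 and 59.5 CPM in knockouts 275 to 278 and 172, 144, 121 and 93.96 CPM in controls 279 to 282, where CPM, the usual depth-scaled read count, use TMM library sizes. It fell in the knockouts, with a log2 fold change of -1.43 (SE 0.18, adjusted p = 3.14e-04) in edgeR's quasi-likelihood test, and the lowest control lay above the highest knockout. Where in the gene the deletion lies is not stated in the labels. Library totals ran from 14228268 to 18398039 counts. Blood cell precursors, which the newborn liver still holds, differed between the groups: all 12 erythroid markers measured fell, with summed levels of 2093 to 4226 CPM in knockouts and 8387 to 10967 CPM in controls. Of 9 hepatocyte markers 4 fell and 0 rose (also 0 at an unadjusted p under 0.05 and by DESeq2), with sums of 51419 to 64107 CPM against 82901 to 105740 CPM. Without albumin (Alb) the sums overlapped, at 24170 to 27236 CPM and 25735 to 31516 CPM. Of 10 Kupffer cell and macrophage markers 9 rose (sums of 1431 to 1706 CPM against 834 to 937 CPM), as did 6 of 8 endothelial markers, while all 10 genes of S phase and mitosis fell. In whole tissue, fewer cells of a type and less RNA per cell cannot be told apart, and the part of these differences in the results was not tested.

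Of the 34 genes, 11 rose and 8 fell in knockout livers, and 15 did not pass the test (edgeR's quasi-likelihood test, Benjamini-Hochberg adjusted p under 0.05). That is 55.9% called, where 20.7% of all genes tested were called. Among all genes, 9.27% rose and 11.4% fell. The median log2 fold change of the 34 was 0.11, against 0.01 over all genes, with 19 values above 0 and 15 below. In 7 members every knockout lay above every control, and in 7 every knockout lay below, where 10.8% and 12.8% of all genes, or 23.6% in all, had groups apart in that way. The members were measured deeply, with 33 of them at 100 or more counts in every library. Called members had a median absolute log2 fold change of 0.45, against 0.67 over all called genes. Changes past 2-fold were found in 5 of 19 called members and in 1082 of 3782 called genes, which are similar shares. The calls of Vnn1, Pdk4, Angptl4, Acadl and Bdh1 (higher) and of Crot, Acot3 and Etfa (lower) held in each of 19 alternative analyses other than the fit with an erythroid covariate. The other 11 calls were lost in at least 1 of them. With the erythroid covariate, which can hardly be told apart from genotype in these livers, edgeR called 0 of the 34 (2 above and 11 below 0 at an unadjusted p under 0.05), and 7 of the 19 called members turned sign. Without knockout 278 the counts were 14 higher and 4 lower, without control 280 they were 9 and 4, and without both 15 and 4. Leaving out knockout 275, 276 or 277 gave 7, 6 and 6 higher with 3, 6 and 6 lower. Leaving out control 279, 281 or 282 gave 5, 6 and 6 higher with 5, 7 and 4 lower.

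**Figure D1:**
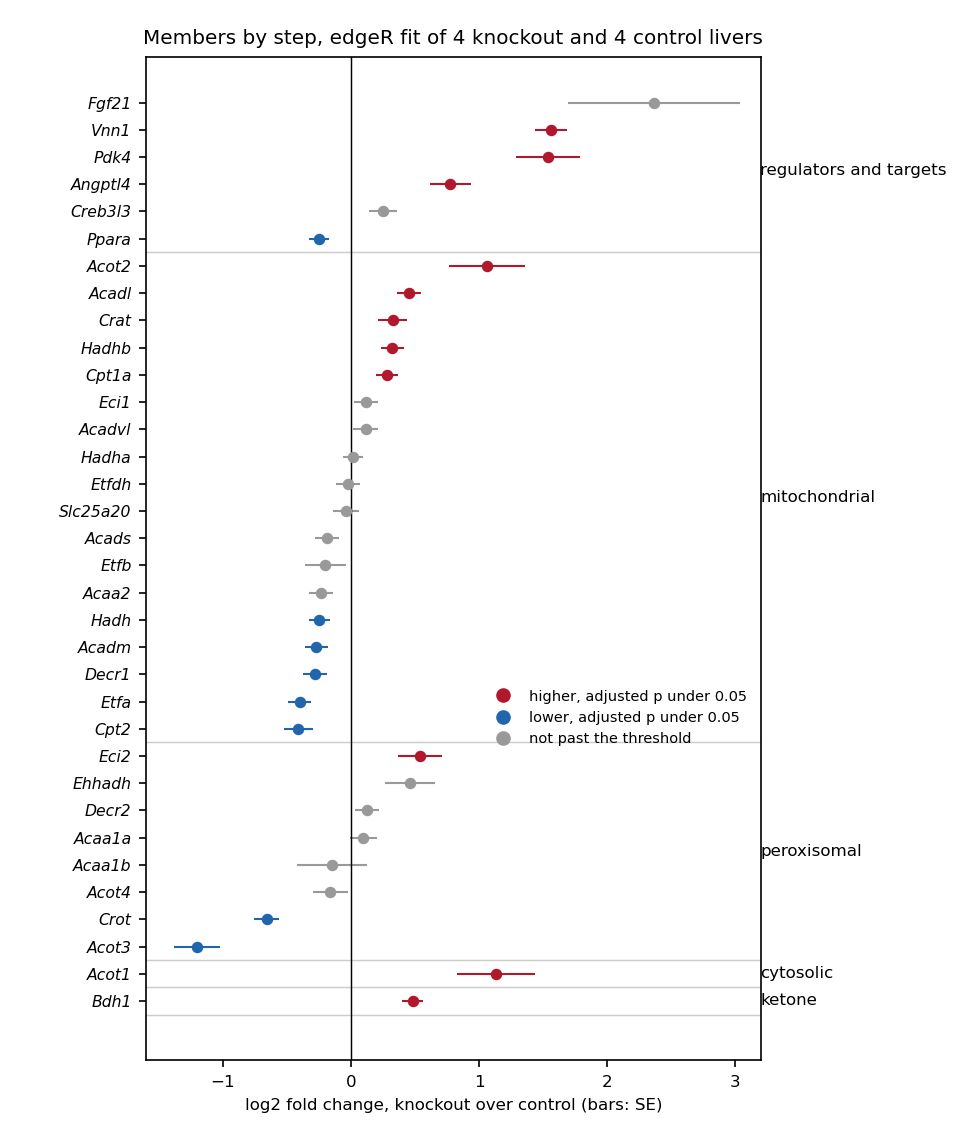
Log2 fold change (knockout over control, horizontal axis) of each of the 34 genes, with bars of 1 SE, grouped by place of action and coloured by call in edgeR's quasi-likelihood test. Target genes and some thioesterases lie to the right, Acot3 and Crot to the left, and the mitochondrial enzymes lie on both sides of 0.

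PPAR-alpha's own transcript fell in knockouts while 3 of its classical targets rose. Ppara (ENSMUSG00000022383, chr15:85734983-85802819), the receptor itself, was measured at 156, 168, 176 and 155 CPM in knockouts 275 to 278 and 195, 185, 193 and 206 CPM in controls 279 to 282. All 4 knockouts lay below all 4 controls, and Ppara fell, with a log2 fold change of -0.25 (SE 0.08, adjusted p = 0.0283). Creb3l3, a liver transcription factor held in the endoplasmic reticulum that acts with PPAR-alpha, stood at 310.4 ± 42.3 CPM in knockouts and 261 ± 32.9 CPM in controls (SD, n = 4), with overlapping groups and a log2 fold change of 0.25 (SE 0.11, adjusted p = 0.118). The call for Ppara was lost without knockout 275 or 278 or control 279 or 282 (adjusted p from 0.0536 to 0.0914). It was also lost with upper-quartile scaling (0.054), library size alone (0.129), no filter on low counts (0.0575) and a Y-linked covariate (0.0567). For Creb3l3 it was gained without 278 (0.0456), with library size alone (0.0417) and without a filter on low counts (0.0424).

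Of the 4 target genes on the list, Vnn1, Pdk4 and Angptl4 rose without overlap between the groups. Vnn1 (ENSMUSG00000037440, chr10:23894688-23905343), a pantetheinase that releases a precursor of coenzyme A, was measured at 81.3, 84.3, 84.2 and 58.6 CPM in knockouts 275 to 278 and 21.6, 27.8, 27.6 and 27.2 CPM in controls 279 to 282. It rose 2.96-fold, with a log2 fold change of 1.57 (SE 0.13, adjusted p = 6.39e-07), the smallest p of the 34. Pdk4 (ENSMUSG00000019577, chr6:5483351-5496309) encodes the kinase that shuts pyruvate dehydrogenase when fat is the fuel. Its values were 150.2, 191, 157 and 84.96 CPM in knockouts 275 to 278 and 45.3, 55.5, 42.1 and 58.1 CPM in controls 279 to 282. Liver 278 was the lowest knockout and still above every control, and Pdk4 rose 2.91-fold with a log2 fold change of 1.54 (SE 0.25, adjusted p = 0.00447). Angptl4 (ENSMUSG00000002289, chr17:33773750-33781830), a secreted inhibitor of lipoprotein lipase, was measured at 64.6, 73.7, 98.9 and 56.01 CPM in knockouts 275 to 278 and 43.4, 39.3, 38.4 and 50.3 CPM in controls 279 to 282. Angptl4 rose 1.71-fold, with a log2 fold change of 0.78 (SE 0.16, adjusted p = 0.00451).

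Fgf21 (ENSMUSG00000030827, chr7:45613886-45615490), the hormone that the liver secretes under PPAR-alpha control, was measured at 9.46, 15.1, 16.4 and 57.3 CPM in knockouts 275 to 278 and 5.0, 6.30, 4.99 and 2.66 CPM in controls 279 to 282. All knockouts lay above all controls, but liver 278 alone stood far above the other 3. The mean ratio was 5.16-fold, with a log2 fold change of 2.37 (SE 0.67, adjusted p = 0.0541), which missed the threshold. With all 8 livers it was called by DESeq2 (adjusted p = 0.00132), with a 1 CPM filter (0.0497), with a non-robust dispersion (0.00344) and when scaled by library size alone (0.0461). Without liver 278, the spread was smaller, and the log2 fold change was 1.52 (SE 0.26, adjusted p = 4.80e-04); the call was also gained without knockout 275 (adjusted p = 0.0401). In 13 of 20 alternatives Fgf21 stayed uncalled, among them limma-voom (adjusted p = 0.117), no filter on low counts (0.0989) and a Y-linked covariate (0.108). Leaving out any 1 control also gave no call (adjusted p from 0.106 to 0.128). Fgf21 had the lowest count of any member in a single library, 38 in control 282.

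Other PPAR-alpha target genes, a list of 17 that holds none of the members, had 6 higher, 1 lower and 10 not called by edgeR, where DESeq2 called 11 higher and limma-voom 8, each with 1 lower. By edgeR 41.2% of the list were called, against 20.7% of all genes tested. The list had a median log2 fold change of 0.72 and 16 of 17 values above 0. The 1 that fell was Acsl1 (log2 fold change -0.33, SE 0.09, adjusted p = 0.0160), with every knockout below every control. Plin2, which coats lipid droplets, rose 2.55-fold (log2 fold change 1.35, SE 0.17, adjusted p = 3.82e-04). Txnip, an inhibitor of thioredoxin, rose 1.92-fold (log2 fold change 0.94, SE 0.13, adjusted p = 1.80e-04), and Cidec, a lipid droplet fusion protein, rose 5.04-fold (log2 fold change 2.33, SE 0.44, adjusted p = 0.00290). The microsomal omega-hydroxylases Cyp4a10 and Cyp4a14 were not called by edgeR, and were called by DESeq2 (adjusted p = 0.0430 and 0.00796). Cyp4a14 was measured at 735, 842, 802 and 289.8 CPM in knockouts 275 to 278 and 223, 382, 269 and 299.5 CPM in controls 279 to 282, so that 3 knockouts lay far above the controls and liver 278 lay among them, with a log2 fold change of 1.18 (SE 0.37, adjusted p = 0.0711). Cyp4a10 had the same arrangement, with 299, 325, 219 and 67.2 CPM in knockouts 275 to 278 and 59.7, 126, 84.2 and 98.4 CPM in controls 279 to 282 and a log2 fold change of 1.31 (SE 0.52, adjusted p = 0.140). Without liver 278 both were called, with log2 fold changes of 1.43 (adjusted p = 6.10e-05) for Cyp4a14 and 1.61 (adjusted p = 0.0111) for Cyp4a10. Among 15 other regulators of oxidation, 4 rose and 1 fell, which is 33.3% called against 20.7% of all genes tested. Lpin1, a phosphatidate phosphatase that also acts with PPAR-alpha in the nucleus, rose with a log2 fold change of 1.14 (SE 0.12, adjusted p = 4.26e-06), as did Lpin2 with a log2 fold change of 0.36 (SE 0.08, adjusted p = 0.00412). Acaca, the cytosolic acetyl-CoA carboxylase, rose with a log2 fold change of 0.49 (SE 0.11, adjusted p = 0.00290); its product malonyl-CoA is the inhibitor of the Cpt1 enzymes.

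**Figure D2:**
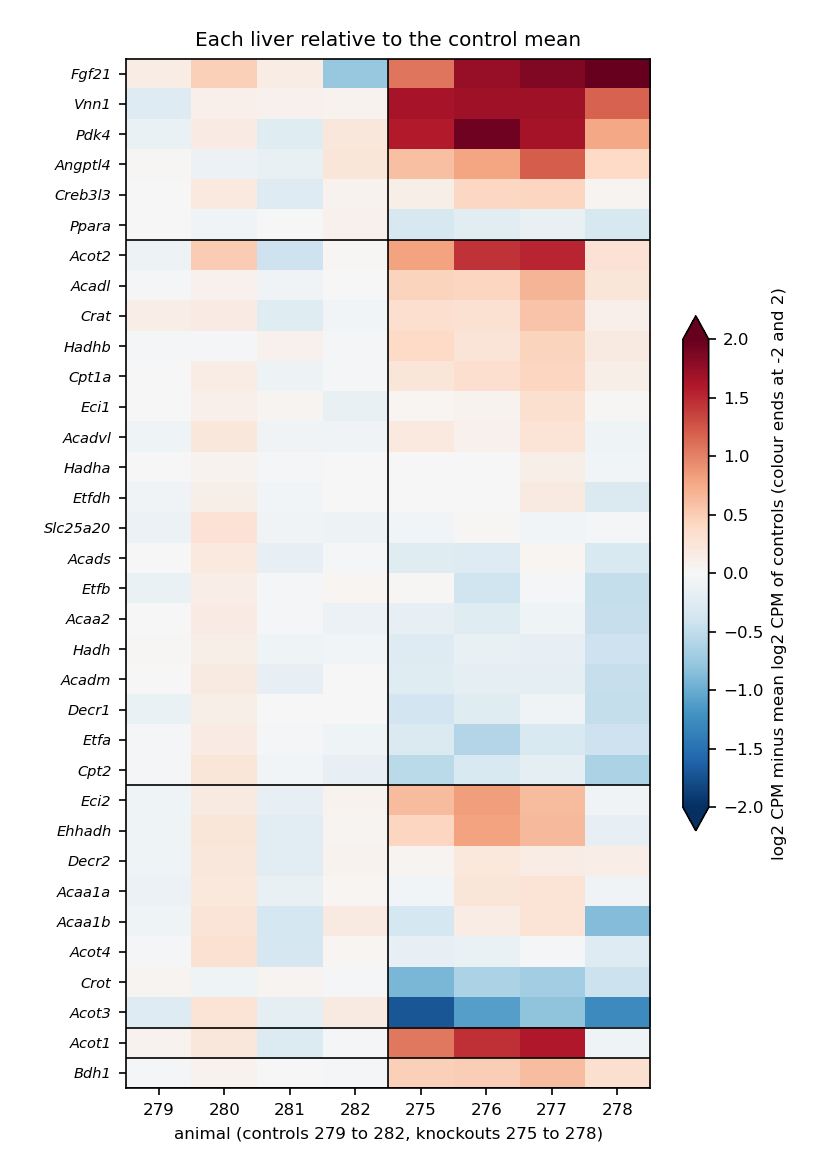
Heat map of the 34 genes (rows, grouped by place of action) in the 8 livers (columns), coloured by log2 CPM minus the gene's mean over the controls. Target genes are high in knockouts 275, 276 and 277 and less so in 278 (Fgf21 is highest there), and control 280 is the highest control in 29 of 34 rows.

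The 4 genes of the carnitine shuttle moved in both directions. Cpt1a, the outer membrane transferase that sets the rate of fatty acid entry, was measured at 683, 727, 781 and 629 CPM in knockouts 275 to 278 and 578, 639.6, 539 and 564 CPM in controls 279 to 282. Liver 278 lay within the control range, just below control 280, and Cpt1a rose 1.22-fold, with a log2 fold change of 0.28 (SE 0.09, adjusted p = 0.0321). Cpt2, the inner membrane transferase that hands the acyl group back to coenzyme A, was measured at 62.1, 73.2, 79.7 and 57.95 CPM in knockouts 275 to 278 and 88.97, 107, 87.04 and 80.4 CPM in controls 279 to 282. It lay below the controls in every knockout and fell, with a log2 fold change of -0.41 (SE 0.11, adjusted p = 0.0140). Slc25a20, the translocase that joins both steps, showed 49.9 ± 1.21 CPM in knockouts and 51.3 ± 7.24 CPM in controls (SD, n = 4), with a log2 fold change of -0.04 (SE 0.10, adjusted p = 0.835). Crat, which buffers acetyl-CoA as acetylcarnitine in mitochondria and peroxisomes, rose, at 85.3 ± 11.6 CPM in knockouts and 68.1 ± 8.70 CPM in controls (SD, n = 4), with a log2 fold change of 0.32 (SE 0.11, adjusted p = 0.0474) and overlapping groups. These calls depended on single libraries: Cpt1a and Crat lost theirs without any of knockouts 275, 276 and 277 or controls 279, 281 and 282 (adjusted p from 0.0557 to 0.117 and from 0.0596 to 0.183). Cpt2 lost its own without knockout 275 or control 280 (0.0543 and 0.0557). Crat also lost its call with a non-robust dispersion, with a Y-linked covariate and when the most abundant genes were left out.

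Among the acyl-CoA dehydrogenases, which begin each round and differ in the chain length they take, the long-chain and the medium-chain enzymes moved in opposite directions. Acadl (ENSMUSG00000026003, chr1:66830839-66863277), the long-chain enzyme, was measured at 574, 563, 669 and 494 CPM in knockouts 275 to 278 and 412, 448, 399 and 421 CPM in controls 279 to 282. Every knockout lay above every control, and Acadl rose 1.37-fold, with a log2 fold change of 0.45 (SE 0.09, adjusted p = 0.00206). Acadm, the medium-chain enzyme, was measured at 253, 262, 261 and 218 CPM in knockouts 275 to 278 and 298, 339, 265 and 298 CPM in controls 279 to 282. The groups did not overlap, although the highest knockout and the lowest control were 262 and 265 CPM, and Acadm fell with a log2 fold change of -0.27 (SE 0.09, adjusted p = 0.0457). The very-long-chain enzyme Acadvl stood at 212 ± 22.1 CPM in knockouts and 196 ± 20.9 CPM in controls (SD, n = 4), with a log2 fold change of 0.11 (SE 0.10, adjusted p = 0.449). Acads, the short-chain enzyme, stood at 147 ± 16.5 CPM in knockouts and 168 ± 18.1 CPM in controls (SD, n = 4), with a log2 fold change of -0.19 (SE 0.10, adjusted p = 0.187). Acadm kept its call only without control 281 when single libraries were left out (adjusted p from 0.0507 to 0.142 in the other 7 cases). Its call was also lost with median-ratio, upper-quartile and library-size scaling, a non-robust dispersion and a Y-linked covariate.

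The later steps of the mitochondrial round were also divided. Hadha and Hadhb encode both subunits of the trifunctional protein, which carries long chains through hydration, dehydrogenation and thiolysis. Hadha showed 702 ± 37.5 CPM in knockouts and 694 ± 20.98 CPM in controls (SD, n = 4), with a log2 fold change of 0.02 (SE 0.08, adjusted p = 0.916). Hadhb was measured at 68.6, 62.1, 70.3 and 58.7 CPM in knockouts 275 to 278 and 50.5, 50.95, 55.2 and 50.9 CPM in controls 279 to 282, with no overlap, and it rose with a log2 fold change of 0.32 (SE 0.09, adjusted p = 0.0153). Of the 50-base windows of Hadhb, 19.7% also occur in other genes, among them a pair of pseudogenes, so its level is uncertain. Hadh, the dehydrogenase for medium and short chains, was measured at 412, 442, 436 and 367 CPM in knockouts 275 to 278 and 499.7, 529.96, 462 and 474 CPM in controls 279 to 282. All knockouts lay below all controls and Hadh fell, with a log2 fold change of -0.25 (SE 0.09, adjusted p = 0.0496). The thiolase Acaa2 stood at 604 ± 66.1 CPM in knockouts and 710.4 ± 58.1 CPM in controls (SD, n = 4) and was not called, with a log2 fold change of -0.23 (SE 0.09, adjusted p = 0.0922). Acaa2 lies on chromosome 18, 7703 bases beyond the end of the deleted Myo5b gene on the same strand, and the part of this place in its level was not tested. Without knockout 275 or 277 or control 279, Hadhb lost its call (adjusted p from 0.0502 to 0.0631). Hadh lost its call without knockout 275, 277 or 278 or control 279, 280 or 282 (from 0.0509 to 0.128). The Hadh call was also lost with median-ratio, upper-quartile and library-size scaling, a non-robust dispersion and a Y-linked covariate.

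Unsaturated chains need auxiliary enzymes, of which Decr1 removes and Eci1 moves a double bond in mitochondria. Decr1 was measured at 126, 139, 157 and 118 CPM in knockouts 275 to 278 and 150.3, 178, 166 and 164 CPM in controls 279 to 282. It fell with a log2 fold change of -0.29 (SE 0.09, adjusted p = 0.0395), and knockout 277 alone overlapped the controls. Eci1 stood at 62.5 ± 6.44 CPM in knockouts and 57.6 ± 4.29 CPM in controls (SD, n = 4), with a log2 fold change of 0.12 (SE 0.10, adjusted p = 0.438). Decr1 lost its call without any one of knockouts 275, 276 and 278 and controls 280, 281 and 282 (adjusted p from 0.0578 to 0.118). Upper-quartile and library-size scaling, a non-robust dispersion and a Y-linked covariate also removed it.

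Electrons from the first step pass through the electron transfer flavoprotein to the respiratory chain, and 1 of its 3 genes changed. Etfa (ENSMUSG00000032314, chr9:55454508-55512243), the alpha subunit, was measured at 161, 132, 159 and 147 CPM in knockouts 275 to 278 and 192, 221, 193 and 185 CPM in controls 279 to 282. Every knockout lay below every control and Etfa fell 1.32-fold, with a log2 fold change of -0.40 (SE 0.09, adjusted p = 0.00327). Etfb, the beta subunit, stood at 11.3 ± 2.005 CPM in knockouts and 13.03 ± 1.05 CPM in controls (SD, n = 4) with a log2 fold change of -0.20 (SE 0.16, adjusted p = 0.425), and Etfdh, the dehydrogenase that takes the electrons on, at 197 ± 25.7 CPM in knockouts and 200.2 ± 12.2 CPM in controls (SD, n = 4) with a log2 fold change of -0.02 (SE 0.09, adjusted p = 0.912). Etfb shares 44.8% of its 50-base windows with an overlapping gene on the same strand, so reads could be split between them.

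Of a further 12 mitochondrial oxidation genes that are not members, 11 were tested, with 0 higher by edgeR (1 at an unadjusted p under 0.05, and 1 by DESeq2), 2 lower and a median log2 fold change of -0.13. That is 18.2% called by edgeR, close to the 20.7% of all genes tested. Echs1, the short-chain hydratase, fell with a log2 fold change of -0.30 (SE 0.09, adjusted p = 0.0288), a call lost without knockout 275, 276 or 277 or control 279, 280 or 281 (adjusted p from 0.0502 to 0.105). Acot13, a mitochondrial thioesterase, fell with a log2 fold change of -0.48 (SE 0.13, adjusted p = 0.0131). Acot9, another, lay higher in knockouts without passing the test (log2 fold change 0.63, SE 0.22, adjusted p = 0.0504), and was called without control 282 (adjusted p = 0.0344), by DESeq2 (0.0420) and by limma-voom (0.0347).

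In the peroxisomal group of 8, Crot and Acot3 fell, Eci2 rose and 5 did not pass the test. Crot (ENSMUSG00000003623, chr5:8966033-8997324), which makes the carnitine esters that leave the peroxisome, was measured at 615, 745, 710.4 and 857 CPM in knockouts 275 to 278 and 1201, 1093, 1204 and 1121 CPM in controls 279 to 282. All knockouts lay below all controls, and liver 278 was the highest knockout. Crot fell 1.58-fold, with a log2 fold change of -0.66 (SE 0.10, adjusted p = 1.21e-04). Eci2, an isomerase of peroxisomes and mitochondria, was measured at 102, 118, 103 and 62.7 CPM in knockouts 275 to 278 and 62.3, 74.5, 58.8 and 69.6 CPM in controls 279 to 282. Knockouts 275, 276 and 277 lay above every control and liver 278 inside the control range, and Eci2 rose with a log2 fold change of 0.54 (SE 0.17, adjusted p = 0.0490). Ehhadh, the bifunctional hydratase and dehydrogenase and a well-known PPAR-alpha target, was measured at 225, 291, 262 and 149.7 CPM in knockouts 275 to 278 and 158, 198, 144 and 174 CPM in controls 279 to 282. The same 3 knockouts lay above every control with 278 inside their range, and the difference was not called, with a log2 fold change of 0.46 (SE 0.20, adjusted p = 0.149). Ehhadh was called by DESeq2 (adjusted p = 0.0193) and without a filter on low counts (0.00279). Without liver 278 it was called with a log2 fold change of 0.62 (SE 0.11, adjusted p = 6.74e-04), and Eci2 reached 0.70 (adjusted p = 6.32e-05). With 278 kept, the Eci2 call was lost when any other single library was left out (adjusted p from 0.0645 to 0.121). A Y-linked covariate also removed the Eci2 call.

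Both peroxisomal thiolases were without a call: Acaa1a stood at 114 ± 14.9 CPM in knockouts and 107 ± 12.6 CPM in controls (SD, n = 4) with a log2 fold change of 0.10 (SE 0.10, adjusted p = 0.573), and Acaa1b at 152 ± 50.6 CPM in knockouts and 169 ± 31.5 CPM in controls (SD, n = 4) with a log2 fold change of -0.15 (SE 0.28, adjusted p = 0.764). They share 50-base windows with each other and with further genes, 17.1% (Acaa1a) and 39.6% (Acaa1b) in all, so their split is uncertain. Decr2, the peroxisomal dienoyl-CoA reductase, stood at 115 ± 5.39 CPM in knockouts and 106 ± 14.2 CPM in controls (SD, n = 4) with a log2 fold change of 0.13 (SE 0.09, adjusted p = 0.391).

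Among 16 other genes of peroxisomal oxidation, 2 rose and 7 fell (56.2% called, against 20.7% of all genes tested), with a median log2 fold change of -0.17. The genes that fell included Pecr, which reduces enoyl-CoA (log2 fold change -1.08, SE 0.11, adjusted p = 3.66e-06), Phyh, which starts the oxidation of branched phytanic acid (log2 fold change -0.68, SE 0.09, adjusted p = 6.10e-05), and Cat, the catalase that removes the hydrogen peroxide made by the oxidases (log2 fold change -0.77, SE 0.11, adjusted p = 1.09e-04). Rises and falls thus both occurred within the peroxisomal pathway, as they did within the mitochondrial one. By place of action, 5 of 18 mitochondrial members rose and 5 fell (median log2 fold change -0.03), while 1 of 8 peroxisomal members rose and 2 fell (median -0.03). Over all genes tested, 9.27% rose and 11.4% fell. The share of peroxisomal members that rose was near that of all genes, and it rests on Eci2 alone. The medians of both groups did not keep their sign: they were 0.06 and 0.16 without knockout 278 and control 280. Summed levels of the 8 peroxisomal members, of which Crot was the highest, were 1315 to 1624 CPM in knockouts and 1772 to 1883 CPM in controls. Those of the 16 other peroxisomal genes were 2726 to 3053 CPM and 3363 to 3987 CPM. Mitochondrial member sums overlapped, at 3960 to 4942.5 CPM in knockouts and 4248 to 4898 CPM in controls.

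Acyl-CoA thioesterases, which release free fatty acids from coenzyme A, moved in different directions although the genes are close relatives. The 4 on the list lie on the plus strand of chromosome 12 (GRCm38), in this order: Acot2 at chr12:83987861-83993873, Acot1 at chr12:84009490-84018371, Acot4 at chr12:84038379-84048601 and Acot3 at chr12:84052144-84060402. Their products act in mitochondria (Acot2), cytosol (Acot1) and peroxisomes (Acot4 and Acot3). The 150 bases before the RefSeq start of each (GRCm38.p6, plus strand, 5′ to 3′) are printed because these neighbours moved in different directions. The RefSeq start of Acot1 lies a few bases inside the GENCODE gene. Capitals in the Acot4 stretch mark a near match to the DR1 motif described further on. The windows are chr12:83987711-83987860 (Acot2), chr12:84009352-84009501 (Acot1), chr12:84038229-84038378 (Acot4) and chr12:84051994-84052143 (Acot3). Aligned in pairs, they were 43.2% to 48.1% identical.
Acot2: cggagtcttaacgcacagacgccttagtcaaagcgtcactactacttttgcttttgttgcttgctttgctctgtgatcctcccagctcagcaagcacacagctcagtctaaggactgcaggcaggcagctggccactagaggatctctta
Acot1: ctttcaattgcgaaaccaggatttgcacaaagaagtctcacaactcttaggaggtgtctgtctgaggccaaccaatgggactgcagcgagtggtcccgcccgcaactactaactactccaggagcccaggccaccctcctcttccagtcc
Acot4: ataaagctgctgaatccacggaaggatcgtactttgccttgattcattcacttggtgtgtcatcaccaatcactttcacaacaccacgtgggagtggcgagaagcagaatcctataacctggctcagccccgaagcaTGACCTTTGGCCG
Acot3: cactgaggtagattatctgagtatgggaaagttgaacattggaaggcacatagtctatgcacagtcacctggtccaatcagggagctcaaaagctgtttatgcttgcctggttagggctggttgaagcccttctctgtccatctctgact

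Acot2 was measured at 22.9, 35.6, 37.6 and 16.02 CPM in knockouts 275 to 278 and 12.1, 18.5, 9.80 and 13.3 CPM in controls 279 to 282. Liver 278 lay among the controls and the other 3 knockouts above all of them, and Acot2 rose 2.09-fold, with a log2 fold change of 1.06 (SE 0.30, adjusted p = 0.0334). Acot1 had the same arrangement, with 15.7, 20.7, 22.9 and 7.10 CPM in knockouts 275 to 278 and 7.92, 8.78, 6.23 and 7.36 CPM in controls 279 to 282. It rose 2.19-fold, with a log2 fold change of 1.13 (SE 0.31, adjusted p = 0.0239). Acot3 went the other way, at 10.3, 15.8, 19.4 and 14.02 CPM in knockouts 275 to 278 and 28.5, 41.03, 29.6 and 38.2 CPM in controls 279 to 282. No knockout reached any control, liver 278 included, and Acot3 fell 2.30-fold, with a log2 fold change of -1.20 (SE 0.18, adjusted p = 2.21e-04). Acot4, which lies between Acot1 and Acot3, stood at 21.7 ± 1.31 CPM in knockouts and 24.3 ± 4.40 CPM in controls (SD, n = 4) and was not called, with a log2 fold change of -0.16 (SE 0.14, adjusted p = 0.449). Without liver 278 the log2 fold changes were 1.26 for Acot2 (adjusted p = 0.00102) and 1.38 for Acot1 (adjusted p = 2.81e-05). Acot2 lost its call without knockout 276 or 277 or control 279, 281 or 282 (adjusted p from 0.0633 to 0.0974), and Acot1 without knockout 275 or 276 or any 1 control (from 0.0517 to 0.0704). A Y-linked covariate also removed the Acot2 call. From 13.4% (Acot4) to 27.7% (Acot2) of 50-base windows in these genes also occur in another gene, so counts may be split among them. A gene on the opposite strand overlaps Acot3, Acot4, Crot, Bdh1, Crat, Acadvl, Hadha, Etfdh, Acaa1a, Acaa1b and Eci2, whose reads could be shared with it. Genes on the same strand also overlap Acot3 (396 exon bases), Acot4 (33) and Crot (39).

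**Figure D3:**
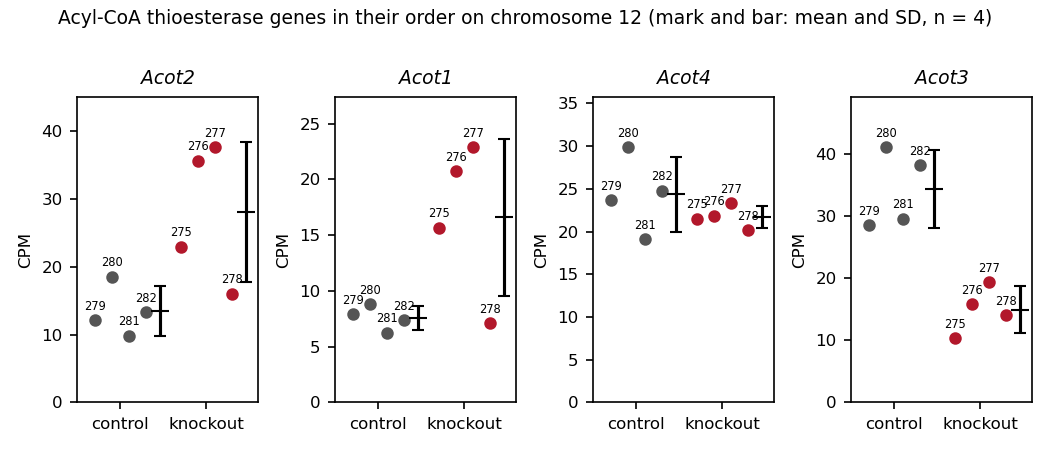
CPM of Acot2, Acot1, Acot4 and Acot3, in chromosome order, in each control (279 to 282) and knockout (275 to 278) liver, with the mean and SD of each group (n = 4). Acot2 and Acot1 are high in 3 knockouts and at control level in 278, and Acot3 is low in all 4.

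In the ketone pathway, Bdh1 rose while 3 other genes fell. Bdh1 (ENSMUSG00000046598, chr16:31422280-31458901), which interconverts acetoacetate and beta-hydroxybutyrate in the matrix, was measured at 1253, 1268, 1380.1 and 1129 CPM in knockouts 275 to 278 and 888, 940.4, 898 and 876 CPM in controls 279 to 282. Each knockout lay above each control, and Bdh1 rose 1.40-fold, with a log2 fold change of 0.48 (SE 0.08, adjusted p = 4.93e-04). An antisense gene overlaps Bdh1 and shares 11.1% of its 50-base windows, and with the counting strand not given the reads of both cannot be told apart. Of 4 other ketone body genes, 3 fell (75% called, against 20.7% of all genes tested). Acat1, a mitochondrial thiolase that makes acetoacetyl-CoA, was measured at 784, 691, 798 and 871 CPM in knockouts 275 to 278 and 1014, 1113, 1108 and 955 CPM in controls 279 to 282. It fell with no overlap, with a log2 fold change of -0.41 (SE 0.09, adjusted p = 0.00316). Oxct1, through which other tissues use ketone bodies and which hepatocytes hold little of, stood at 16.9 ± 2.90 CPM in knockouts and 24.2 ± 1.70 CPM in controls (SD, n = 4) and fell with a log2 fold change of -0.52 (SE 0.14, adjusted p = 0.0124). Slc16a6, a transporter that exports beta-hydroxybutyrate from the liver, fell with a log2 fold change of -0.82 (SE 0.19, adjusted p = 0.00733).

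**Figure D4:**
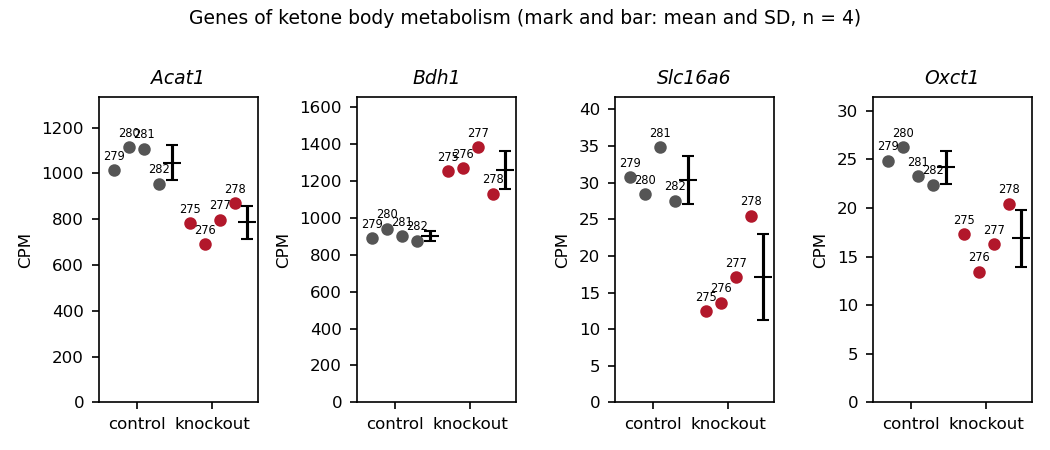
CPM of Acat1, Bdh1, Slc16a6 and Oxct1 in each control (279 to 282) and knockout (275 to 278) liver, with the mean and SD of each group (n = 4). Bdh1 is higher in every knockout than in any control, and Acat1, Slc16a6 and Oxct1 are lower in every knockout.

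Liver 278 stood apart from the other knockouts in most of the list. It was the lowest of the 4 knockouts for 28 of 34 members (82.4%), where it was lowest for 26.6% of all genes tested, and it was the highest for Fgf21 and Crot alone (28.8% of all genes). The lowest place held for 16 of 18 mitochondrial members, for 5 of 8 peroxisomal ones and for 12 of 17 other PPAR-alpha targets. Being lowest put liver 278 farthest from the control mean for Ppara, Cpt2, Acadm, Hadh and Decr1, which fell. For 15 of 34 members (44.1%) it was the knockout nearest the control mean and outside the range of the other 3, where the share over all genes was 24.9%. These 15 included 6 of 18 mitochondrial and 3 of 8 peroxisomal members and 4 of 6 regulators and targets. The nearest place over all genes was held less often by knockouts 275 (12.8%), 276 (12.6%) and 277 (16%) than by liver 278. Liver 278 lay inside the control range for 12 of 34 members, among them Cpt1a, Acot1, Acot2, Ehhadh and Eci2. That is 35.3%, against 45.7% over all genes. With 1 library these are descriptions and have no test.

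The distance of liver 278 from the mean of the other knockouts differed by gene. On the log2 CPM scale it was -1.44 for Acot1, -0.96 for both Acot2 and Pdk4, -0.89 for Acaa1b, and -0.78 for both Ehhadh and Eci2. Vnn1 (-0.51) and Angptl4 (-0.47) lay lower too, and yet above every control. Crot differed by 0.32 and Fgf21 by 2.10, in the upward direction. The median over the 34 was -0.25, with -0.25 over the mitochondrial and -0.18 over the peroxisomal members, and 0.02 over all genes. Liver 278 had the highest erythroid marker sum of the knockouts, 4226 CPM, which was under every control, and whether this plays a part was not tested.

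**Figure D5:**
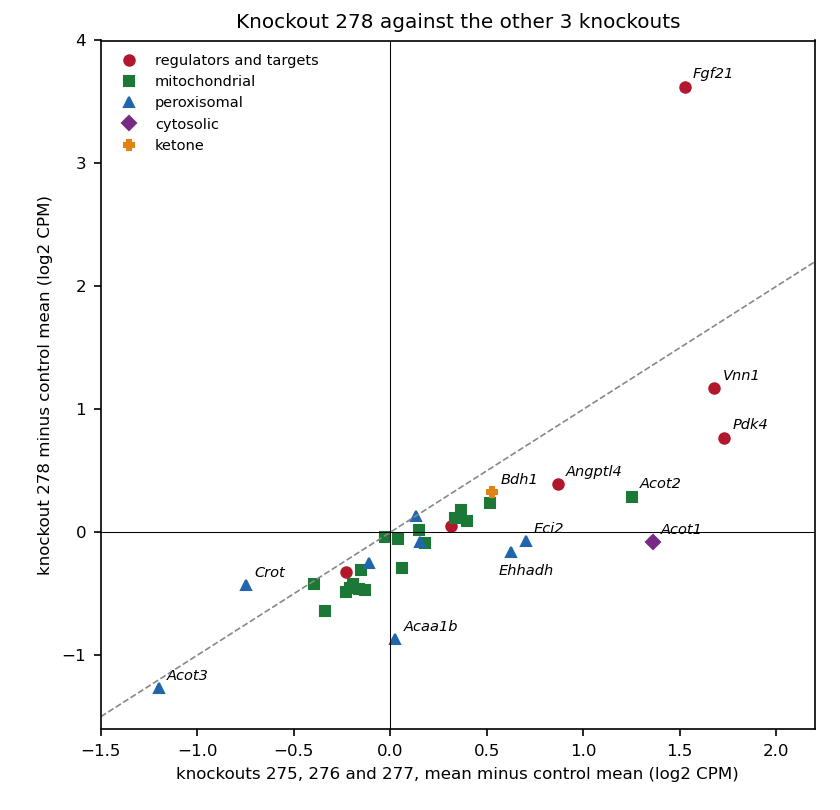
Difference from the control mean in log2 CPM for liver 278 (vertical axis) and for the mean of the other 3 knockouts (horizontal axis), 1 point per gene, with the line of equality. Most points lie under the line, Fgf21 lies far above it, and Acot1, Ehhadh and Eci2 lie near 0 for liver 278.

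Other livers also kept to one end of their group. Knockout 277 was the highest knockout for 22 of 34 members (64.7%, against 23.0% over all genes), and it was the only knockout with Y-linked reads, whose part in this was not tested. Among the controls, 280 was the highest for 29 of 34 (85.3%, against 26.5%), including 17 of 18 mitochondrial and 7 of 8 peroxisomal members, and 281 was the lowest for 18 of 34 (24.1% of all genes). The mean log2 CPM over the 34 genes was 6.88, 7.02, 7.12 and 6.74 in knockouts 275 to 278, and 6.70, 6.91, 6.63 and 6.73 in controls 279 to 282. The groups therefore overlapped in the level of the list as a whole. Control 280 also held traces of other tissue: the brown fat gene Ucp1 was at 5.56 CPM there and at most 0.121 CPM elsewhere, and the muscle gene Acta1 was at 67.6 CPM in knockout 276, 22.7 in control 280, 15.6 in control 282 and at most 2.25 in the others. The part of such tissue in the results was not tested.

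The PPAR-alpha/RXR element was looked for in promoters because several members are known targets. RefSeq promoters (GRCm38.p6) matched 29 of 34 members, in 32 promoters. Vnn1, Angptl4, Crat, Decr1 and Acaa2 had no promoter entry and were not searched. The DR1 motif, AGGTCA repeated after a gap of 1 base (N), was searched on both strands in the 250 bases before each start. None of the 29 held an exact match, and 3 held 1 with at most 2 mismatches, where 3.24% of all 32851 promoters did and 0.0335% held an exact one. The matches, in capitals with up to 20 bases on each side, are shown 5′ to 3′ on the strand of the gene, at chr10:81092768-81092820 (minus strand, Creb3l3), chr9:55512288-55512340 (minus strand, Etfa) and chr12:84038346-84038378 (plus strand, Acot4). Of these genes Etfa fell, and Creb3l3 and Acot4 were not called. The Creb3l3 stretch, taken before a RefSeq start, lies inside the GENCODE gene (chr10:81084324-81098874). A match describes letters only, and binding was not measured.
Creb3l3: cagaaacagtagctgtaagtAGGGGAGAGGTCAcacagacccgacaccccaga
Etfa: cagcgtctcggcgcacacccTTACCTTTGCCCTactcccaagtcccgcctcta
Acot4: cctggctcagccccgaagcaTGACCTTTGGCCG

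Levels were compared between genes per kilobase of exon. In controls the list ran from 469 CPM per kb for Acaa2, followed by Bdh1 (232), Crot (212) and Acadl (209), down to Fgf21 (4.98), Acot4 (3.65) and Acot1 (1.93). The thioesterases that changed were thus among the least abundant transcripts of the list, with Acot3 at 9.99 and Acot2 at 6.11 CPM per kb in controls. Bdh1, Crot and Acadl, near its top, changed by smaller ratios.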

How the data were processed

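Whole-liver RNA was prepared with Trizol and a kit column, per the labels' protocols. The deposited values are read counts per Ensembl gene as whole numbers. The authors aligned reads with Rsubread 2.20.0 under R 4.4.1 and BiocManager 1.30.26 (labels' protocols) and counted with featureCounts (submitters' processing notes). The build, spelled GRMm38 by the labels, was taken as GRCm38. Which annotation, strand and multiple-mapping settings were used was not given in the sources used here. Reads of near-identical or overlapping genes may thus be split or shared. The authors' own test was DESeq2 1.46.0, per the design text, and no result of it was used.

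Symbols came from GENCODE M21 and matched 48058 of 48440 genes. The labels give a separate animal for each library, and pairs of libraries in a group differed by more than counting noise (chi-square per degree of freedom 12.9 to 24.0). After filterByExpr (count of 10, total of 15) and TMM scaling, genotype was tested over all 18274 genes by the robust quasi-likelihood F-test of edgeR 4.0.16 (limma 3.58.1, R 4.3.3), adjusted by Benjamini-Hochberg at 0.05. The SE was derived from the F statistic as the size of the log2 fold change over the root of F. CPM were computed on TMM library sizes, and log2 CPM with a prior count of 2. Alternatives were DESeq2 1.42.0, limma-voom, other scalings, filters and covariates, and fits without each library. The fit was tested on simulated data. Shared 50-base windows were counted over GENCODE M21 transcripts, promoters were aligned with Biopython 1.88, and plots were made with matplotlib 3.10.9.

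The members, lists and tests were chosen with earlier results of these data known. Named by rule were all 34 members, Myo5b, the 3 genes of smallest p in each other pathway list, and Cyp4a10 and Cyp4a14. Some genes of the other pathway lists are not reported here and were left out of those lists. Ucp1, Acta1 and Acsl1 were named after their values were seen. Of 8 stellate cell markers 2 rose and 2 fell. Of 6 cholangiocyte markers, and of the 3 brown fat and muscle markers tested out of 8, edgeR called 0, as did DESeq2 and limma-voom, with 0 at an unadjusted p under 0.05.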

Additional observations from a re-analysis of the deposited data

Results flagged for a closer look

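Each of the 34 members was examined for a liver far from the other 3 of its group, which made 68 groups. In 7 of them the gap to the nearest liver, divided by the range of the group, passed Dixon's critical value for 4 samples. Chance alone gives about 1 in 20 groups.

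In knockout 278, Fgf21 stood at 57.3 CPM (9.46 to 16.4 CPM in the other knockouts) and Vnn1 at 58.6 CPM (81.3 to 84.3 CPM). In control 279, Vnn1 stood at 21.6 CPM (27.2 to 27.8 CPM in the other controls). Control 280 was apart for Slc25a20 at 62.1 CPM (47.0 to 48.7 CPM) and for Acadvl at 227 CPM (184 to 186 CPM). Control 281 was apart for Hadhb at 55.2 CPM (50.5 to 51.0 CPM), and knockout 277 for Eci1 at 72.0 CPM (58.3 to 60.4 CPM).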

How the results depend on the processing

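The counts were 11 members higher and 8 lower. Upper-quartile scaling, library size alone and a Y-linked covariate each gave 4 lower, and a non-robust dispersion gave 5 lower. In that order, these settings gave 1912, 1696, 1898 and 2061 lower over all genes, against 2088 otherwise. Leaving out 1 library gave from 5 to 14 higher and from 3 to 7 lower, over all genes from 1223 to 1762 higher and from 1699 to 2167 lower, and medians from -0.07 to 0.03 (mitochondrial) and from -0.11 to 0.08 (peroxisomal). Leaving out knockout 278 and control 280 together, chosen after seeing the data, gave 15 higher and 4 lower. With 4 livers a group, the calls near the threshold depend on single livers.

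An erythroid covariate, which raises the variance of the genotype term 9.52-fold, gave 0 members higher and 0 lower by edgeR (2 and 11 at an unadjusted p under 0.05), 22 genes higher and 17 lower over all genes, and medians of -0.61 (mitochondrial) and -0.54 (peroxisomal). In that fit erythroid content and genotype cannot be told apart. The sign turned there, on the log2 scale, for Creb3l3 (-0.13), Cpt1a (-0.14), Crat (-0.26), Acadvl (-0.54), Acadl (-0.12), Hadha (-0.22), Hadhb (-0.10), Eci1 (-0.29), Acot2 (-0.60), Acaa1a (-0.33), Ehhadh (-0.71), Eci2 (-0.59), Acot1 (-1.17), Slc16a6 (0.27), Cyp4a10 (-2.08) and Cyp4a14 (-1.34).

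Other signs that turned belonged to genes near 0 that were not called. Library size alone gave Slc25a20 0.033 and Etfdh 0.050, upper-quartile scaling gave Etfdh 0.011, and limma-voom gave Etfdh 0.002. With 278 and 280 left out, Slc25a20 was 0.066, Etfdh 0.100 and Acaa1b 0.118. With each library left out in turn, the values ran from -0.079 to 0.064 for Slc25a20, -0.028 to 0.039 for Hadha, -0.099 to 0.060 for Etfdh and -0.323 to 0.030 for Acaa1b. The count of members for which liver 278 was nearest the controls stayed between 15 and 17 under other scalings and filters. No paired analysis was possible because the labels share no replicate number between the groups.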
